A study of Mus musculus with 12 samples.

Results

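The extracellular matrix, the receptors that hold cells to it and the enzymes that build and cut it were followed across 4 populations of mouse pluripotent cells. The genes were taken by symbol alone: every collagen chain, laminin chain, integrin, matrix metalloproteinase (MMP) and tissue inhibitor of metalloproteinases (TIMP) named on the array, together with Fn1, Sparc, Serpinh1, Serpinf1, Cd44, Nid1, Nid2, P4ha1, P4ha2 and Plod2. These symbols covered 236 probes of 115 genes. To be kept, a probe needed a scanner detection p of 0.01 or less on every array of some group, which left 65 probes of 50 genes among 11089 features tested. The 50 genes were 13 collagens, 6 laminins and nidogens, 4 genes of collagen folding and modification, 9 integrin subunits, 9 MMPs, 3 TIMPs, 4 other matrix and receptor genes, and Itgb1bp1 and Itgb3bp, which match the symbol pattern but encode proteins that bind integrin tails and are not integrin subunits.

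Epithelial cells of the early embryo rest on a basement membrane, a thin sheet in which laminin trimers and a type IV collagen network are linked by nidogen and perlecan. Collagen chains are hydroxylated and folded in the endoplasmic reticulum by prolyl and lysyl hydroxylases and the chaperone HSP47 before they are secreted. Cells bind the finished matrix through integrins, which are pairs of an alpha and a beta subunit, while MMPs cut matrix proteins and TIMPs block the MMPs.

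Total RNA was hybridised to 12 arrays on 2 Illumina BeadChips of the type MouseWG-6 v2, with 3 arrays for each group. EsrrbHi, EsrrbMed and EsrrbNeg were 3 fractions of one clonal line of E14Tg2a embryonic stem cells (ESCs), in which a destabilized GFP placed after a 2a peptide at both alleles reports expression of Esrrb, a nuclear receptor of the naive pluripotency network. The line was grown in 10% fetal calf serum (FCS) with LIF at 3000 cells/cm2 for 3 days, and cells positive for the surface marker SSEA-1 were sorted as GFP high, medium or negative. EpiSC were epiblast stem cells of another line, TNG Esrrb-2a-TdTomato, which carries a GFP cassette in one Nanog allele and a tdTomato reporter at Esrrb, and were cultured with Activin and FGF in N2B27. No sort is given for the EpiSC. The sorted fractions are described as independent experiments, whereas nothing states that the EpiSC replicates were separate cultures, so p-values that involve EpiSC may measure technical spread only. Any comparison of EpiSC with an ESC fraction therefore also compares lines, media and sorting, which cannot be told apart from the cell state.

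Between 13333 and 15393 probes were detected per array. Median probe intensities, which lie near background, ranged from 82.9 to 97.9 before normalization, and the 95th percentile from 403 on EsrrbHi replicate 3 to 974 on EsrrbMed replicate 1. Of 11 genes of pluripotent cells, 10 were detected on all 3 EsrrbHi arrays and 11 on all 3 EsrrbNeg and all 3 EpiSC arrays. Their summed linear level was 21201 to 21926 in EsrrbHi, 19792 to 20817 in EsrrbMed, 18029 to 19745 in EsrrbNeg and 13067 to 14110 in EpiSC. Esrrb itself was −0.69 ± 0.14 (adjusted p = 0.0197) in EsrrbMed against EsrrbHi on the log2 scale and −6.32 ± 0.14 (adjusted p = 7.42e-12) in EsrrbNeg against EsrrbHi, in the order of the sort. Chip 1 held replicates 1 and 2 of the ESC fractions, and chip 2 held their replicate 3 and all EpiSC arrays. Among 16 fibroblast markers the summed linear level was 4087 on EpiSC replicate 1, 1933 and 1748 on the other EpiSC arrays, 911 on EsrrbNeg replicate 3 and 632 and 618 on the other EsrrbNeg arrays. It was 697 to 729 in EsrrbMed and 575 to 644 in EsrrbHi. EpiSC replicate 1 and EsrrbNeg replicate 3 thus stood apart from their groups. Acta2, Thy1 and Vim were detected on all 12 arrays, while Pdgfrb, Fap, Postn, S100a4, Tagln and Tbx18 were detected on none. Twist1 was detected on all EsrrbNeg and EpiSC arrays, Dcn on 2 EsrrbNeg and all EpiSC arrays and Twist2 on all EpiSC arrays, and none of these 3 on an EsrrbHi or EsrrbMed array. EsrrbNeg replicate 3 also had the highest primitive streak and mesoderm sum of its group (397, against 222 and 218). EsrrbHi had 229 to 233, EsrrbMed 217 to 231 and EpiSC 848 to 1152. For 10 trophectoderm markers the sum was 1234 to 1560 in EsrrbHi, 1356 to 1630 in EsrrbMed, 674 to 887 in EsrrbNeg and 1431 to 1681 in EpiSC. The part of other cells in the results below was not tested, and a change in the share of cells that express a gene cannot be told apart from a change in RNA per cell.

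A gene was called where limma's moderated test, with chip as a term, gave an adjusted p of at most 0.05 over all 11089 features and a change of at least 1.5-fold. In EsrrbMed against EsrrbHi, 3 of the 50 genes were called, all lower, where 1.18% of all features were called (0.478% higher and 0.703% lower). In EsrrbNeg against EsrrbMed, 7 rose and 7 fell, with 5.73% and 6.17% of all features called in these directions and 11.9% in either. In EsrrbNeg against EsrrbHi, 8 rose and 7 fell (9.06% in each direction and 18.1% in either over all features). The 3 falls in EsrrbMed were thus 6.0% of the 50 genes, and the rises and falls in EsrrbNeg against EsrrbHi were 16% and 14% of them. In EpiSC against EsrrbNeg, 19 rose and 5 fell (12.1% and 8.96% of all features, 21% together), and in EpiSC against EsrrbHi, 24 rose and 11 fell (18.5% and 14.9%, 33.4% together). The ranges of the 3 arrays did not overlap for 10 of the 50 genes in EsrrbMed against EsrrbHi, where this was so for 19.6% of all features, for 23 in EsrrbNeg against EsrrbMed (38.1%), for 25 genes between EsrrbNeg and EsrrbHi (45.9%), 35 in EpiSC against EsrrbNeg (57.1%) and 42 in EpiSC against EsrrbHi (64.9%). The comparisons share groups and are not independent of each other.

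The number of rises in EpiSC was set in part by the choice of probes. Of the 50 genes, 30 were detected in full in all 4 groups, 11 in 2 or 3 groups, and 9 in EpiSC only, and these last had to be higher there to be kept at all. The filter also bore on genes kept through 2 or 3 groups. Nid1 and Itgb7 passed through EsrrbHi and EsrrbMed alone, so they had to be lower in EsrrbNeg and EpiSC. Serpinf1 and Mmp25 passed through EsrrbNeg and EpiSC alone, so they had to be higher there. Itga9 passed through every group but EsrrbNeg, where it had to be lower. Of the 30 genes detected on all 12 arrays, 12 rose and 7 fell in EpiSC against EsrrbHi, 6 rose and 4 fell in EpiSC against EsrrbNeg, and 6 rose and 3 fell in EsrrbNeg against EsrrbHi. Calls at the methods' 1.5-fold threshold also depended on the processing. With quantiles and no background correction, 47 of the 91 calls over the 5 comparisons were lost. On the authors' log2 table, 45 of the 91 were met, and 44 of the 46 that were not had an adjusted p of at most 0.05 but a change under 1.5-fold. No background correction is described for that table. It also held 9990 of the features and was fitted without a chip term, and the part of each difference was not tested. On the authors' log2 table the share of rises among the genes called in EsrrbNeg against EsrrbHi was 33.3%, compared with 53.3% here, and 33.3% against 50% in EsrrbNeg against EsrrbMed. Over all features called, the share was lower on that table as well. It was 41.4% against 50% here in EsrrbNeg against EsrrbHi, and 37.4% against 48.1% in EsrrbNeg against EsrrbMed. Calls met under every alternative that could be run were 0 of 3 in EsrrbMed against EsrrbHi, 2 of 14 in EsrrbNeg against EsrrbMed (Lama1 and Serpinh1), 8 of 15 in EsrrbNeg against EsrrbHi (Itga3, Itga9, Lama1, Lamc1, Mmp2, Nid1, Serpinh1 and Timp1), 7 of 24 in EpiSC against EsrrbNeg and 20 of 35 in EpiSC against EsrrbHi. Among these calls, Cd44 and Col16a1 in both EpiSC comparisons and Col7a1 against EsrrbHi passed detection through EpiSC alone, so they had to be higher there. The directions of Nid1 and Itga9 in EsrrbNeg against EsrrbHi were likewise bound by the filter. So were those of Nid1, Itgb7, Mmp25 and Serpinf1 in EpiSC against EsrrbHi.

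**Figure D1:**
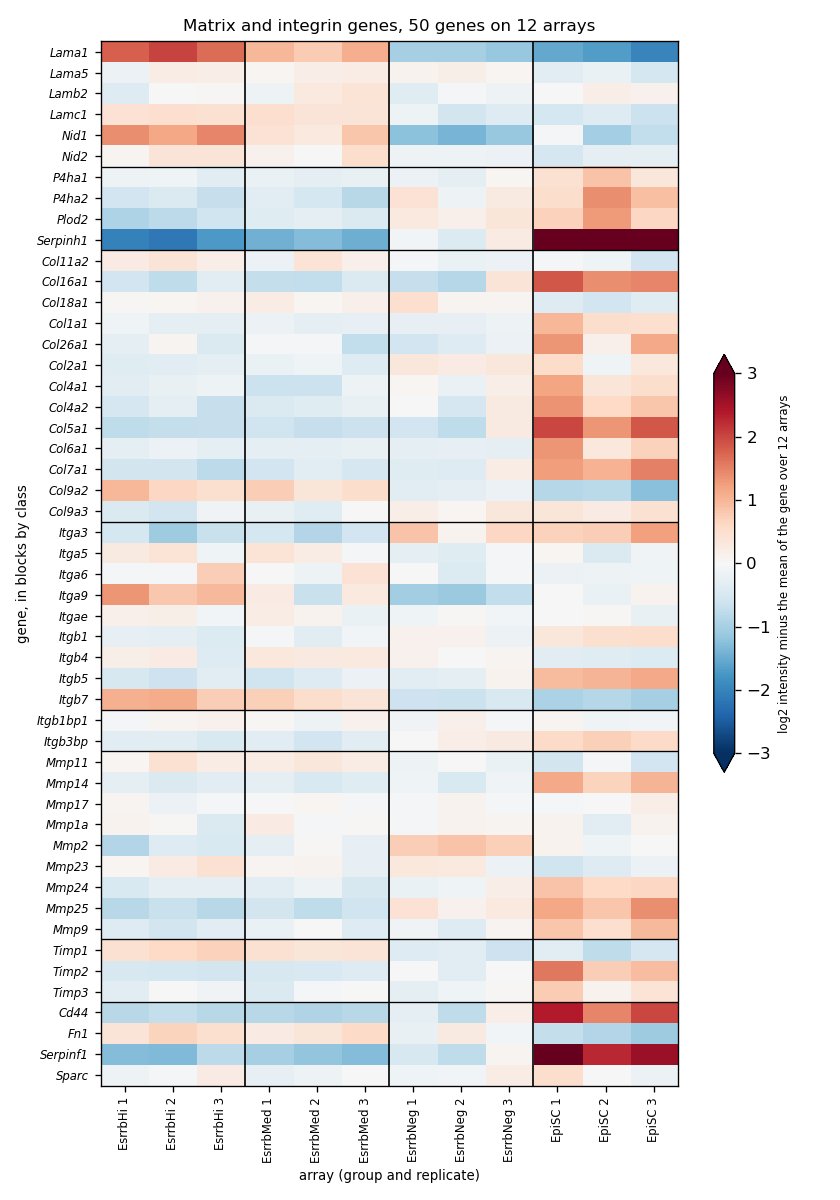
All 50 genes (rows, in blocks by class) on the 12 arrays (columns, by group and replicate); colour gives the log2 intensity minus the mean of that gene over the 12 arrays. Lama1 and Nid1 are highest in EsrrbHi and lower in EsrrbNeg, Serpinh1 and Serpinf1 are highest in EpiSC, and Mmp2 is highest in EsrrbNeg.

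No laminin or nidogen was called higher in any of the 5 comparisons. Of 6 genes measured, 3 fell and none rose in EsrrbNeg against EsrrbHi, and 4 fell and none rose in EpiSC against EsrrbHi, with medians over the class of −0.64 and −0.86 where the medians over all features were 0.03 and 0.01. Nid1, among the falls in both, passed detection through EsrrbHi and EsrrbMed alone, so it had to be lower in the other groups. Lama1, the alpha chain of the laminin trimer of the early embryonic basement membrane, had normalized log2 intensities of 8.74, 9.0 and 8.63 in EsrrbHi, 7.95, 7.72 and 8.04 in EsrrbMed, 5.97, 5.96 and 5.83 in EsrrbNeg and 5.43, 5.28 and 4.97 in EpiSC. Each group lay below the one before it without overlap. Lama1 fell by 0.89 ± 0.13 (log2 scale, ± SE, adjusted p = 0.00487) from EsrrbHi to EsrrbMed, and by 1.98 ± 0.13 (adjusted p = 2.86e-07) from EsrrbMed to EsrrbNeg. EsrrbNeg was 7.30-fold below EsrrbHi (−2.87 ± 0.13, adjusted p = 4.87e-09). EpiSC was lower again than EsrrbNeg (−0.66 ± 0.15, adjusted p = 0.00375), a difference that fell under 1.5-fold without EpiSC replicate 3 (−0.53, adjusted p = 0.0124) or without EsrrbMed replicate 3 (−0.57, adjusted p = 0.0109).

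Nid1, which encodes nidogen-1, a linker between laminin and type IV collagen, followed Lama1 through the ESC fractions. Its log2 intensities were 7.04, 6.81 and 7.13 in EsrrbHi, 6.09, 5.94 and 6.49 in EsrrbMed, 4.43, 4.27 and 4.52 in EsrrbNeg and 5.60, 4.65 and 4.92 in EpiSC. It was detected on every EsrrbHi and EsrrbMed array and on no EsrrbNeg array. EsrrbNeg was therefore at least 5.13-fold lower than EsrrbHi (−2.59 ± 0.19, adjusted p = 1.96e-07) and at least 2.90-fold lower than EsrrbMed (−1.77 ± 0.19, adjusted p = 1.21e-05), where the bound sets the dim group to the lowest signal detected on each array or its own, whichever is higher. The step from EsrrbHi to EsrrbMed (−0.82 ± 0.19, adjusted p = 0.0362) was lost when any one of 7 ESC arrays was left out, for example without EsrrbMed replicate 2 (−0.75, adjusted p = 0.169). In EpiSC, Nid1 was detected on 2 of the 3 arrays. Since no EsrrbNeg array detected it, a further fall could not have been measured. Every EpiSC array lay above every EsrrbNeg array, but the difference did not pass the test (adjusted p = 0.0962). It was called as a rise with no chip term (0.65, adjusted p = 0.0189), with the replicate block in place of chip (0.65, adjusted p = 0.00575) and without EpiSC replicate 2 (0.67, adjusted p = 0.0137).

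The remaining chains showed smaller changes. Lamc1, the gamma chain shared by most laminin trimers, had 9.52, 9.57 and 9.53 in EsrrbHi and 9.57, 9.45 and 9.45 in EsrrbMed, which overlapped, and 8.92, 8.52 and 8.69 in EsrrbNeg and 8.54, 8.69 and 8.42 in EpiSC, which overlapped with each other and lay below. EsrrbNeg against EsrrbHi gave −0.83 ± 0.11 (adjusted p = 3.9e-05). Nid2, the second nidogen, fell in EpiSC against EsrrbHi (−0.76 ± 0.14, adjusted p = 0.00039) and was −0.45 ± 0.12 (adjusted p = 0.00861) in EsrrbNeg against EsrrbHi, under 1.5-fold. Lama5 and Lamb2, the alpha and beta chains of other laminin trimers, were not called in any comparison, with Lama5 at −0.47 ± 0.14 (adjusted p = 0.0107) in EpiSC against EsrrbHi and Lamb2 at 0.09 ± 0.16 (adjusted p = 0.652). The beta chain that pairs with Lama1 and Lamc1, Lamb1, had no probe that passed detection.

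**Figure D2:**
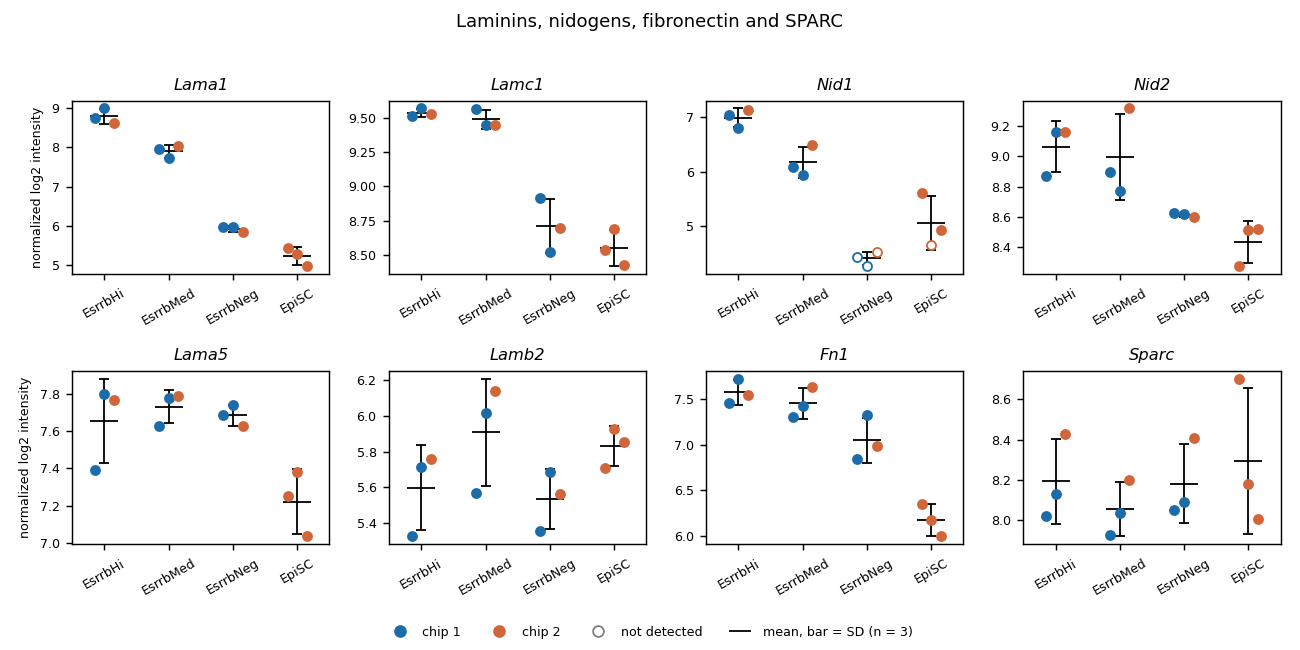
Normalized log2 intensity of 8 basement membrane and adhesive matrix genes, 1 panel per gene, by group; points are arrays, coloured by chip and open where the probe was not detected, and bars give the mean and SD (n = 3). Lama1 steps down at each group from 8.74, 9.0 and 8.63 in EsrrbHi to 5.43, 5.28 and 4.97 in EpiSC, while the Sparc arrays overlap across all groups.

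Genes of collagen folding and modification moved the opposite way. Serpinh1, which encodes HSP47, the collagen-specific chaperone of the endoplasmic reticulum, had the largest change of the 50 genes in EpiSC against EsrrbHi. Its log2 intensities were 5.88, 5.76 and 6.19 in EsrrbHi, 6.47, 6.59 and 6.43 in EsrrbMed, 7.83, 7.49 and 8.15 in EsrrbNeg and 11.54, 11.25 and 11.29 in EpiSC. Each group lay above the previous one without overlap, the reverse order of Lama1. From EsrrbHi to EsrrbMed the rise was 0.56 ± 0.13 (adjusted p = 0.0471), under 1.5-fold. It was 3.68-fold higher in EsrrbNeg than in EsrrbHi (1.88 ± 0.13, adjusted p = 1.93e-07), 10.3-fold higher in EpiSC than in EsrrbNeg (3.37 ± 0.16, adjusted p = 6.77e-08) and 38.0-fold higher in EpiSC than in EsrrbHi (5.25 ± 0.16, adjusted p = 6.96e-11). These last 3 rises were called under every alternative run.

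P4ha2, an alpha subunit of prolyl 4-hydroxylase, which hydroxylates proline in collagen chains, had 5.86, 5.98 and 5.74 in EsrrbHi, 6.10, 5.88 and 5.58 in EsrrbMed, 6.84, 6.26 and 6.70 in EsrrbNeg and 6.96, 7.81 and 7.32 in EpiSC. EsrrbHi and EsrrbMed overlapped, every EsrrbNeg array was above them, and every EpiSC array was above EsrrbNeg. It rose by 0.74 ± 0.20 (adjusted p = 0.00901) in EsrrbNeg against EsrrbHi, a call lost without EsrrbNeg replicate 3 (0.59, adjusted p = 0.0626), and by 1.60 ± 0.23 (adjusted p = 5.46e-05) in EpiSC against EsrrbHi. Plod2, a lysyl hydroxylase of collagen telopeptides, had 5.61, 5.74 and 5.92 in EsrrbHi, 6.16, 6.24 and 6.11 in EsrrbMed, 6.82, 6.69 and 6.90 in EsrrbNeg and 7.22, 7.81 and 7.15 in EpiSC, again in 4 groups that did not overlap. It rose by 1.04 ± 0.15 (adjusted p = 7.99e-05) in EsrrbNeg against EsrrbHi and by 1.57 ± 0.17 (adjusted p = 4.53e-06) in EpiSC against EsrrbHi. Second probes rose in the same comparisons: 0.62 ± 0.16 (adjusted p = 0.00608) and 1.07 ± 0.18 (adjusted p = 0.00019) for P4ha2, and 0.94 ± 0.11 (adjusted p = 1.96e-05) and 1.40 ± 0.13 (adjusted p = 1.1e-06) for Plod2. P4ha1, the other prolyl hydroxylase subunit measured, did not pass the test in EsrrbNeg against EsrrbHi (0.06 ± 0.13, adjusted p = 0.765) and rose in EpiSC against EsrrbHi (0.73 ± 0.15, adjusted p = 0.00119), to under 1.5-fold without EpiSC replicate 2 (0.57, adjusted p = 0.0027), and its second probe was 0.54 ± 0.13 (adjusted p = 0.00316).

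The start regions of these genes are shown because all 3 with a RefSeq window hold the same short motif. The windows run from 250 bases before to 50 bases after the start of transcription in the GRCm38.p6 annotation, and 35 of the 50 genes had one. ACGTG, the core of the hypoxia response element bound by HIF, was searched on both strands and is in capitals (as ACGTG or CACGT) in Serpinh1 at chr7:99353190-99353489 on the minus strand, P4ha1 at chr10:59323046-59323345 on the plus strand and P4ha2 at chr11:54100674-54100973 on the plus strand.
Serpinh1: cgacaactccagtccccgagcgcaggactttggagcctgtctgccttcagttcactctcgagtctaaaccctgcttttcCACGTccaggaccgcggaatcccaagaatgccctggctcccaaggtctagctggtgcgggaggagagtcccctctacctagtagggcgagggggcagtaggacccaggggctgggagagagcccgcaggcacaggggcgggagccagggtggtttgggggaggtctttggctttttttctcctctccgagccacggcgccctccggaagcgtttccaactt
P4ha1: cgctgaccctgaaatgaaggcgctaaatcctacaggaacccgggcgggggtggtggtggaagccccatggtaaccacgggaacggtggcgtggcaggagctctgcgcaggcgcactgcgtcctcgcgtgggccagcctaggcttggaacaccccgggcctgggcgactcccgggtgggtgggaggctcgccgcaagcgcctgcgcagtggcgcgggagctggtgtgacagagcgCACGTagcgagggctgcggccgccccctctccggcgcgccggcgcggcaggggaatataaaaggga
P4ha2: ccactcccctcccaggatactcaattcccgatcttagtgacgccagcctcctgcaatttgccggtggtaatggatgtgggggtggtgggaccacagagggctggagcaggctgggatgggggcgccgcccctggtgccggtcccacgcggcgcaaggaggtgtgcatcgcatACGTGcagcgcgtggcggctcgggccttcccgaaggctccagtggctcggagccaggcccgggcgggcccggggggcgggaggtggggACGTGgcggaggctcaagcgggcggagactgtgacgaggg
The motif was present once in Serpinh1 and P4ha1 and 2 times in P4ha2. It was in 19.6% of all 32851 windows and in 11 of the 35 genes (31.4%), which were Cd44, Col11a2, Col5a1, Itga9, Itgb3bp, Mmp14, P4ha1, P4ha2, Serpinf1, Serpinh1 and Timp1. Those 11 include genes that rose, fell and were not called. GAANNTTC, the minimal heat shock element, was in 7.86% of all windows and, among the 35 genes, in that of Itgb5, and AAGGTCA, the element bound by ESRRB and some other nuclear receptors, was in 4.72% of all windows and in those of Col7a1 and Mmp1a. The shares over all windows count windows, whereas the counts among the 35 genes are of genes with a match in any of their windows. These units are not alike. A match is a string of letters and no measure of binding.

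Several collagens were higher in EpiSC than in the ESC fractions. Of 13 collagen genes, none was called in EsrrbMed against EsrrbHi, 1 rose and 1 fell in EsrrbNeg against EsrrbHi (9.06% of all features in each direction), 7 rose and 2 fell in EpiSC against EsrrbNeg (12.1% and 8.96%), and 9 rose and 1 fell in EpiSC against EsrrbHi (18.5% and 14.9%). Of these rises, 6 of the 7 and 6 of the 9 were those of Col16a1, Col1a1, Col26a1, Col4a2, Col6a1 and Col7a1, which passed detection through EpiSC alone and so had to be higher there. Of the other 7 collagens, 1 rose and 2 fell in EpiSC against EsrrbNeg, and 3 rose and 1 fell in EpiSC against EsrrbHi. Col5a1, a chain of the fibril-nucleating type V collagen, had 5.88, 5.93 and 5.96 in EsrrbHi, 6.06, 5.97 and 6.0 in EsrrbMed, 6.09, 5.88 and 6.92 in EsrrbNeg and 8.67, 7.97 and 8.51 in EpiSC. All ESC arrays but EsrrbNeg replicate 3 lay between 5.88 and 6.09, and every EpiSC array was higher. Col5a1 rose by 2.24 ± 0.23 (adjusted p = 2.56e-06) in EpiSC against EsrrbHi and by 1.87 ± 0.23 (adjusted p = 4.97e-05) in EpiSC against EsrrbNeg.

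Col16a1, a fibril-associated collagen, had 4.58, 4.38 and 4.82 in EsrrbHi, 4.43, 4.41 and 4.71 in EsrrbMed, 4.46, 4.30 and 5.53 in EsrrbNeg and 7.01, 6.55 and 6.63 in EpiSC. It was detected on 1 EsrrbHi array and 1 EsrrbNeg array (replicate 3 in each), on no EsrrbMed array and on all EpiSC arrays. The rise in EpiSC was 1.74 ± 0.20 (adjusted p = 6.83e-06) against EsrrbHi. Col7a1, the collagen of anchoring fibrils, had 6.32, 6.10 and 6.59 in EpiSC and was at least 3.19-fold higher there than in EsrrbHi (1.83 ± 0.19, adjusted p = 2.74e-06), where it was detected on no array. EsrrbNeg replicate 3 was again the highest ESC array, at 5.30. Col1a1, a chain of type I collagen, and Col6a1, a chain of the microfibrillar type VI collagen, were detected in EpiSC only. EpiSC was at least 1.39-fold higher than EsrrbHi for Col1a1 (0.90 ± 0.14, adjusted p = 0.000104) and at least 1.44-fold for Col6a1 (1.03 ± 0.21, adjusted p = 0.000823), with EpiSC replicate 1 the highest array for each (5.46 and 5.74). With the arrays scaled to one median in place of quantiles, neither was called (adjusted p = 0.114 and 0.118). Col26a1 had 6.27, 5.09 and 6.07 in EpiSC, a rise of 1.26 ± 0.30 (adjusted p = 0.00277) against EsrrbHi.

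Of type IV collagen, the network former of basement membranes, Col4a1 did not follow Lama1. A fall of Col4a2 could hardly have been measured, since it was detected on 1 EsrrbHi array, no EsrrbMed array and 2 EsrrbNeg arrays. Col4a2 had 4.43, 4.63 and 4.24 in EsrrbHi, 4.48, 4.55 and 4.70 in EsrrbMed, 4.90, 4.41 and 5.19 in EsrrbNeg and 6.27, 5.53 and 5.76 in EpiSC, where every array was above the ESC arrays. Col4a2 rose by 1.33 ± 0.23 (adjusted p = 0.000244) in EpiSC against EsrrbHi, but it passed detection through EpiSC alone and so had to be higher there. Col4a1 had 5.60, 5.70 and 5.78, 5.28, 5.28 and 5.76, 5.98, 5.73 and 6.12 and 7.11, 6.28 and 6.44 in the same order of groups and rose by 0.72 ± 0.20 (adjusted p = 0.00701), to under 1.5-fold without EpiSC replicate 1 (0.47, adjusted p = 0.00936). EpiSC replicate 1 was the highest array for both genes. Neither was called between ESC fractions, with Col4a1 at 0.25 ± 0.17 (adjusted p = 0.27) and Col4a2 at 0.40 ± 0.20 (adjusted p = 0.126) in EsrrbNeg against EsrrbHi.

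Col4a1 and Col4a2 are a textbook pair of divergent genes, and their start regions are shown because the windows overlap. The Col4a1 window is chr8:11312777-11313076 on the minus strand and the Col4a2 window is chr8:11312555-11312854 on the plus strand, with annotated starts 21 bases apart, and the 78 bases that they share are in capitals, each read 5′ to 3′ on its own strand.
Col4a1: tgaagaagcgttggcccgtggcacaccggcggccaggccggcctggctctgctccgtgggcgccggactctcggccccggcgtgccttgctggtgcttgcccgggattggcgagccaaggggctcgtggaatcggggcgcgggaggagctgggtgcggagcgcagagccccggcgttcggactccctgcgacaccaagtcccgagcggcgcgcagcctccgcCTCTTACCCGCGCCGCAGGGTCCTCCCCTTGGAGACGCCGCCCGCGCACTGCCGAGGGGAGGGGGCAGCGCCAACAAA
Col4a2: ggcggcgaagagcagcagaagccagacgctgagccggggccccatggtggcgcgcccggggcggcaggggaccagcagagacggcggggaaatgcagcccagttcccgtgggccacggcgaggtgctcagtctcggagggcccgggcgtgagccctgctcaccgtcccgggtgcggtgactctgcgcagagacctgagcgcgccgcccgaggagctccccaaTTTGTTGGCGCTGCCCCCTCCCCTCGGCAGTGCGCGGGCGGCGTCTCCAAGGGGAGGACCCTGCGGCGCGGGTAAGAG
The capitals of one are the reverse complement of the capitals of the other.

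Other collagens ran against this pattern. Col9a2, a chain of the fibril-associated type IX collagen of cartilage, had 6.66, 6.28 and 6.14 in EsrrbHi, 6.39, 6.03 and 6.20 in EsrrbMed, 5.33, 5.37 and 5.48 in EsrrbNeg and 4.80, 4.84 and 4.41 in EpiSC. EsrrbHi and EsrrbMed overlapped, EsrrbNeg was lower, and EpiSC was lower again. It fell by 0.97 ± 0.15 (adjusted p = 0.000168) in EsrrbNeg against EsrrbHi and by 1.63 ± 0.17 (adjusted p = 3.56e-06) in EpiSC against EsrrbHi. Col9a3, a partner chain of the same trimer, did not fall with it: it was 0.56 ± 0.09 (adjusted p = 0.000269) in EsrrbNeg against EsrrbHi and 0.52 ± 0.11 (adjusted p = 0.000928) in EpiSC against EsrrbHi, both just under 1.5-fold. Col2a1, the main cartilage collagen, rose in EsrrbNeg against EsrrbHi (0.64 ± 0.14, adjusted p = 0.00218) and in EpiSC against EsrrbHi (0.59 ± 0.16, adjusted p = 0.00641). The second of these calls was at the fold threshold and was lost without EpiSC replicate 1 (0.44, adjusted p = 0.0216). Of the 2 other Col2a1 probes kept, one rose (0.64 ± 0.17, adjusted p = 0.00631) and one did not pass the test (0.11 ± 0.12, adjusted p = 0.452) in EpiSC against EsrrbHi. Col18a1, the basement membrane collagen that is the source of endostatin, fell in EpiSC against EsrrbNeg (−0.64 ± 0.13, adjusted p = 0.00185) and its second probe fell there too (−0.93 ± 0.11, adjusted p = 4.54e-05). On the probe used, the change was under 1.5-fold without EpiSC replicate 2 (−0.58, adjusted p = 0.00637) or EsrrbNeg replicate 1 (−0.55, adjusted p = 0.00203). Col11a2 was not called in any comparison.

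**Figure D3:**
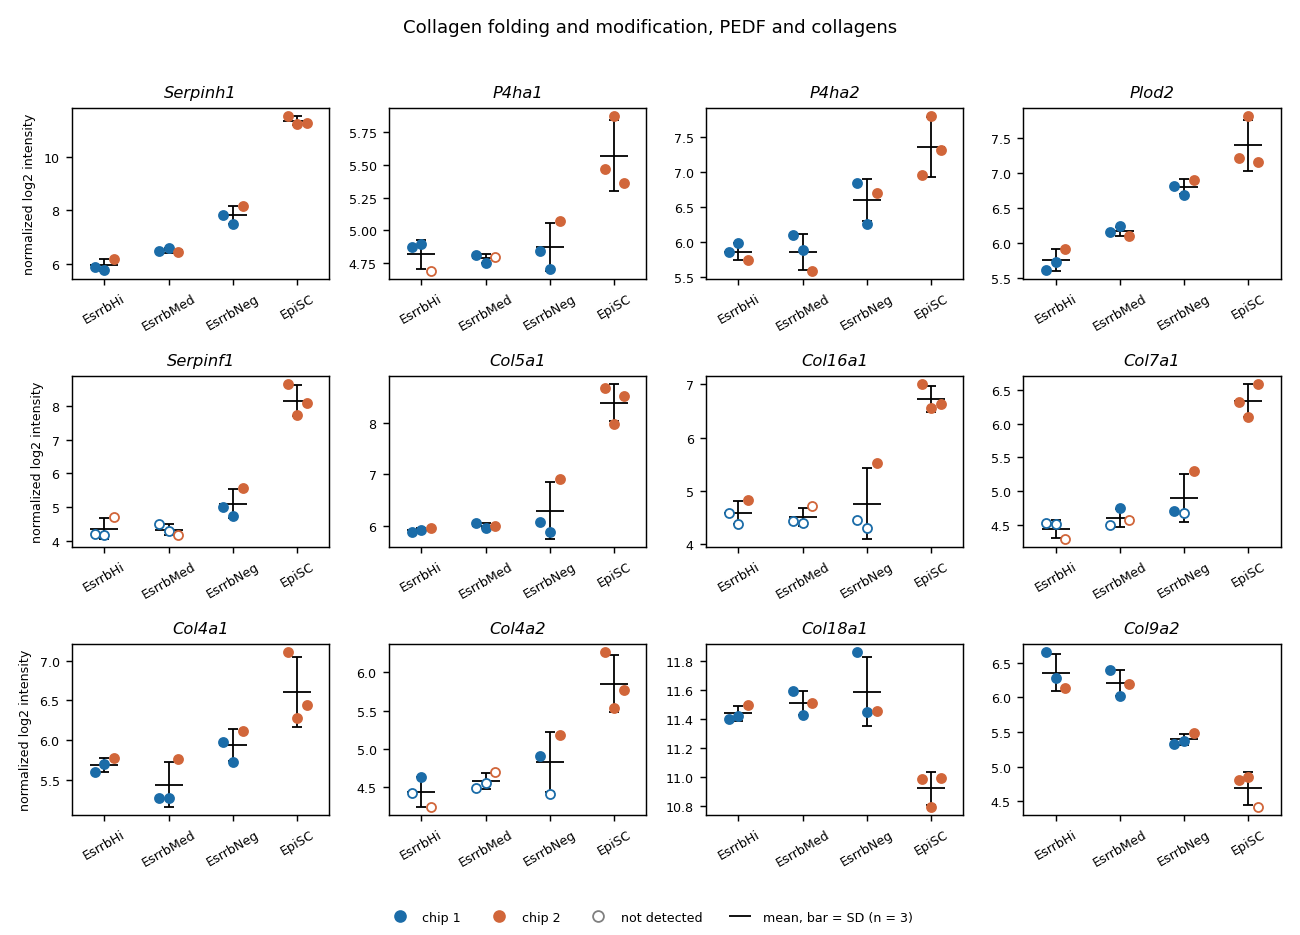
Normalized log2 intensity of the 4 collagen folding and modification genes, Serpinf1 and 7 collagens by group, drawn as in the plot of basement membrane genes. Serpinh1, P4ha2 and Plod2 step up from EsrrbHi to EpiSC, the collagens other than Col18a1 and Col9a2 are highest in EpiSC, and EsrrbNeg replicate 3 lies above the other EsrrbNeg arrays for Col5a1, Col16a1 and Col7a1.

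EpiSC replicate 1, which had the highest fibroblast marker sum, was the highest EpiSC array for Col5a1, Col16a1, Col1a1, Col6a1, Col26a1, Col4a1, Col4a2, Col2a1 and Col11a2. For Col7a1, Col9a3 and Col18a1 it was EpiSC replicate 3, and for Col9a2 replicate 2. Outside the collagens, EpiSC replicate 1 was the highest for Serpinh1, Serpinf1, Cd44, Timp2 and Mmp14. For P4ha1, P4ha2 and Plod2 it was EpiSC replicate 2, and for Itga3, Itgb5 and Mmp25 replicate 3. EsrrbNeg replicate 3 was the highest EsrrbNeg array for Col5a1, Col16a1, Col7a1, Col4a1 and Col4a2, and EsrrbNeg replicate 1 for Col2a1 and Col18a1. Without EpiSC replicate 1, the number of the 50 genes called was 33 in EpiSC against EsrrbHi and 25 in EpiSC against EsrrbNeg, compared with 35 and 24. All 6 of the fibroblast markers that could be tested rose in EpiSC against EsrrbHi, of which Dcn and Twist2 passed detection through EpiSC alone. Among the 6 were Acta2, a smooth muscle actin (2.60 ± 0.42, adjusted p = 0.000149), and Vim, an intermediate filament protein (1.77 ± 0.20, adjusted p = 5.88e-06), which pluripotent cells also express. Of the 16 markers, 6 were on all 3 EpiSC arrays and 8 on none. Extraembryonic endoderm, which lays down much of the basement membrane of the embryo, had summed marker levels of 343 to 362 in EsrrbHi, 358 to 383 in EsrrbMed, 450 to 475 in EsrrbNeg and 468 to 491 in EpiSC, with Gata4, Sox17, Afp and Ttr detected on no array. Gata6, Foxa2 and Cited1 were detected on 2 EpiSC arrays and no ESC array, and Plat and Pth1r on all EpiSC arrays, 1 EsrrbNeg array and no other. Of the 4 markers of this list that could be tested, 3 rose in EpiSC against EsrrbHi (Dab2, Plat and Pth1r), and Plat and Pth1r passed detection through EpiSC alone.

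Of 9 integrin subunits, 1 rose and 2 fell in EsrrbNeg against EsrrbHi (9.06% of all features in each direction), and 3 rose and 3 fell in EpiSC against EsrrbHi (18.5% and 14.9%). Of these 3 rises, 1 was that of Itgb1, whose probes disagreed. The 2 falls in EsrrbNeg were those of Itga9 and Itgb7, which were not detected in full there and so had to be lower. Itgb7 was also among the falls in EpiSC, where it was detected on no array. Itga9, an alpha subunit that pairs with beta 1 and binds tenascin-C and the fibronectin EIIIA segment, had 6.74, 6.25 and 6.39 in EsrrbHi, 5.67, 4.77 and 5.72 in EsrrbMed, 4.38, 4.31 and 4.70 in EsrrbNeg and 5.45, 5.22 and 5.54 in EpiSC. EsrrbHi was above every other array, EsrrbNeg was below every other array and was detected on replicate 3 alone, and EpiSC lay within the range of EsrrbMed. It fell by 2.00 ± 0.20 (adjusted p = 4.82e-06) in EsrrbNeg against EsrrbHi, with 2 of the 3 EsrrbNeg arrays below detection, and was higher in EpiSC than in EsrrbNeg by 0.78 ± 0.24 (adjusted p = 0.0171). The step from EsrrbHi to EsrrbMed (−1.07 ± 0.20, adjusted p = 0.0156) was lost without EsrrbHi replicate 1 (−0.87, adjusted p = 0.0891), EsrrbHi replicate 2 (−1.15, adjusted p = 0.0504) or EsrrbMed replicate 2 (−0.78, adjusted p = 0.053), and the difference of EpiSC from EsrrbNeg without EsrrbNeg replicate 3 (0.86, adjusted p = 0.055).

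Itgb7, a beta subunit best known from lymphocytes that home to the gut, had 6.25, 6.28 and 5.91 in EsrrbHi, 5.88, 5.69 and 5.56 in EsrrbMed, 4.56, 4.53 and 4.72 in EsrrbNeg and 4.21, 4.31 and 4.17 in EpiSC. Every EsrrbMed array was below EsrrbHi and every EsrrbNeg and EpiSC array was below EsrrbMed, but Itgb7 was detected on 1 EsrrbNeg array (replicate 3) and on no EpiSC array, so these last groups have no order. It fell in EsrrbNeg against EsrrbHi (−1.54 ± 0.11, adjusted p = 1.89e-07), a size that rests on 2 EsrrbNeg arrays below detection. EpiSC was at least 2.78-fold below EsrrbHi (−1.82 ± 0.13, adjusted p = 8.77e-08). Itga3, an alpha subunit of a laminin receptor, had 6.52, 5.97 and 6.39 in EsrrbHi, 6.53, 6.18 and 6.48 in EsrrbMed, 7.90, 7.14 and 7.66 in EsrrbNeg and 7.74, 7.78 and 8.28 in EpiSC. The EsrrbHi and EsrrbMed arrays overlapped, as did the EsrrbNeg and EpiSC arrays, and the latter pair lay above the former. The rise was 1.28 ± 0.20 (adjusted p = 0.000192) in EsrrbNeg against EsrrbHi and 1.55 ± 0.23 (adjusted p = 7.61e-05) in EpiSC against EsrrbHi.

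Itgb5, a beta subunit that pairs with alpha V in a vitronectin receptor, rose in EpiSC. Its log2 intensities were 8.57, 8.63 and 8.77 in EpiSC and 7.02 to 7.73 over the 9 ESC arrays, with no overlap. Relative to EsrrbHi it rose by 1.29 ± 0.11 (adjusted p = 4.01e-07), and relative to EsrrbNeg by 0.99 ± 0.11 (adjusted p = 2.23e-05). For Itgb1, the beta subunit common to most matrix receptors, 2 probes disagreed: the probe used here rose in EpiSC against EsrrbHi (0.84 ± 0.12, adjusted p = 6.44e-05), the second did not pass the test there (−0.33 ± 0.14, adjusted p = 0.0685) and fell in EpiSC against EsrrbNeg (−0.66 ± 0.14, adjusted p = 0.00253), so no direction is given for the gene. Itga6, the alpha subunit of a further laminin receptor, fell in EpiSC against EsrrbHi (−0.69 ± 0.16, adjusted p = 0.00196). That call was lost with the replicate block in place of chip (−0.36, adjusted p = 0.0611) and without EsrrbHi replicate 3 (−0.43, adjusted p = 0.08), and the second probe gave −0.23 ± 0.18 (adjusted p = 0.301). Itga5, the alpha subunit of the main fibronectin receptor, was −0.41 ± 0.15 (adjusted p = 0.0459) in EsrrbNeg against EsrrbHi, and it, Itgae and Itgb4 were called in no comparison. Of the integrin-binding proteins, Itgb3bp rose in EpiSC against EsrrbHi (0.95 ± 0.12, adjusted p = 1.34e-05). Itgb1bp1 was −0.15 ± 0.12 (adjusted p = 0.316) there, while its second probe rose (0.87 ± 0.11, adjusted p = 1.2e-05).

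**Figure D4:**
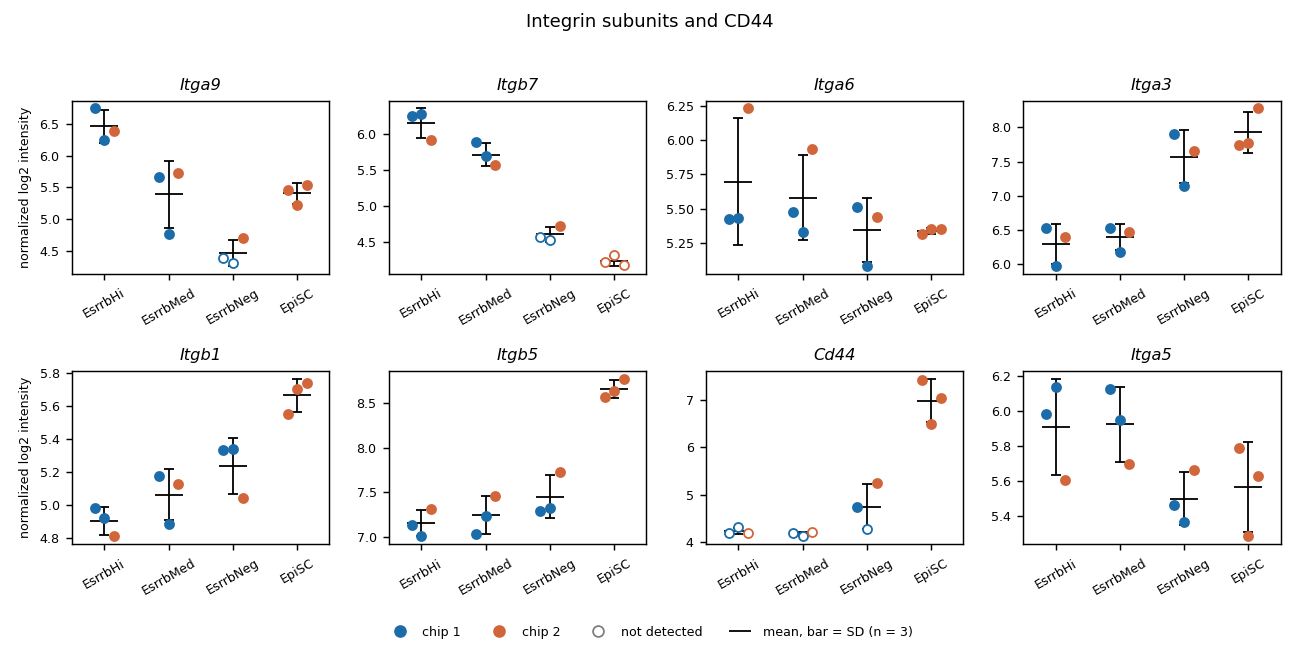
Normalized log2 intensity of 7 integrin subunits and Cd44 by group, drawn as in the plot of basement membrane genes. Itga9 and Itgb7 are highest in EsrrbHi, Itga3 is higher in EsrrbNeg and EpiSC than in the other fractions, and Itgb5 and Cd44 are highest in EpiSC.

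Fibronectin and its neighbours differed in direction. Fn1, which encodes fibronectin, the ligand of several of these integrins, had 7.46, 7.72 and 7.54 in EsrrbHi, 7.30, 7.43 and 7.63 in EsrrbMed, 6.84, 7.32 and 6.98 in EsrrbNeg and 6.35, 6.18 and 5.99 in EpiSC. The ESC fractions overlapped in part and EpiSC was below every ESC array. Fn1 fell by 1.43 ± 0.16 (adjusted p = 6.39e-06) in EpiSC against EsrrbHi and by 0.90 ± 0.16 (adjusted p = 0.000657) against EsrrbNeg, and was −0.53 ± 0.14 (adjusted p = 0.00841) in EsrrbNeg against EsrrbHi, under 1.5-fold. Sparc, a collagen-binding glycoprotein, was called in no comparison and gave −0.10 ± 0.16 (adjusted p = 0.633) in EpiSC against EsrrbHi. Cd44, the hyaluronan receptor, had 4.20, 4.31 and 4.21 in EsrrbHi, 4.20, 4.13 and 4.21 in EsrrbMed, 4.74, 4.28 and 5.24 in EsrrbNeg and 7.41, 6.50 and 7.03 in EpiSC. It was detected on all EpiSC arrays, on EsrrbNeg replicates 1 and 3 and on no other array. EpiSC was at least 4.97-fold above EsrrbHi (2.58 ± 0.24, adjusted p = 1.34e-06). The fitted rise over EsrrbNeg, where 1 array was below detection, was 2.07 ± 0.24 (adjusted p = 4.16e-05), and the second probe rose by less in EpiSC against EsrrbHi (0.64 ± 0.16, adjusted p = 0.00334).

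Serpinf1, which encodes PEDF, a secreted serpin that binds collagen and limits vessel growth, had 4.20, 4.16 and 4.71 in EsrrbHi, 4.50, 4.30 and 4.18 in EsrrbMed, 5.01, 4.73 and 5.57 in EsrrbNeg and 8.66, 7.75 and 8.08 in EpiSC. It was detected on every EsrrbNeg and EpiSC array and on no EsrrbHi or EsrrbMed array. EpiSC was at least 11.3-fold above EsrrbHi (3.58 ± 0.25, adjusted p = 8.77e-08). The fitted change from EsrrbNeg was 7.15-fold (2.84 ± 0.25, adjusted p = 4.96e-06). The smaller rise in EsrrbNeg, at least 1.35-fold over EsrrbHi (0.75 ± 0.22, adjusted p = 0.0136), was lost without EsrrbNeg replicate 3 (0.57, adjusted p = 0.0925).

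Of 9 matrix metalloproteinases, 2 rose and none fell in EsrrbNeg against EsrrbHi (9.06% of all features in each direction), 4 rose and 1 fell in EpiSC against EsrrbNeg (12.1% and 8.96%), and 4 rose and 1 fell in EpiSC against EsrrbHi (18.5% and 14.9%). The 4 rises in EpiSC were in both comparisons those of Mmp14, Mmp25, Mmp9, which passed detection through EpiSC alone, and Mmp24, whose probes disagreed. The 2 rises in EsrrbNeg against EsrrbHi were those of Mmp2 and Mmp25. Mmp25 passed detection through EsrrbNeg and EpiSC alone, so in both it had to be higher than in EsrrbHi. Mmp2, gelatinase A, had 5.67, 6.17 and 6.10 in EsrrbHi, 6.26, 6.58 and 6.31 in EsrrbMed, 7.28, 7.42 and 7.26 in EsrrbNeg and 6.66, 6.42 and 6.54 in EpiSC. EsrrbNeg was the highest group, and its arrays were above those of every other group, while EsrrbMed and EpiSC overlapped. Mmp2 rose by 1.34 ± 0.13 (adjusted p = 3.89e-06) in EsrrbNeg against EsrrbHi and was lower in EpiSC than in EsrrbNeg (−0.78 ± 0.15, adjusted p = 0.0014). Mmp25, a membrane-anchored MMP, had 4.18, 4.34 and 4.19 in EsrrbHi, 4.46, 4.26 and 4.43 in EsrrbMed, 5.45, 5.14 and 5.31 in EsrrbNeg and 6.18, 5.86 and 6.41 in EpiSC. It was detected on every EsrrbNeg and EpiSC array and on no EsrrbHi or EsrrbMed array, so that EsrrbNeg was at least 1.56-fold (1.07 ± 0.13, adjusted p = 2.83e-05) and EpiSC at least 2.79-fold above EsrrbHi (1.91 ± 0.15, adjusted p = 3.16e-07).

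Mmp14, the membrane-bound activator of Mmp2, had 6.62 to 6.97 over the 9 ESC arrays and 8.22, 7.75 and 8.09 in EpiSC, without overlap. It rose by 1.25 ± 0.15 (adjusted p = 9.32e-06) in EpiSC against EsrrbHi. Mmp9, gelatinase B, was not detected in EsrrbHi and was at least 1.92-fold higher in EpiSC (1.15 ± 0.17, adjusted p = 6.27e-05). Mmp24, another membrane-type MMP, rose by 0.97 ± 0.14 (adjusted p = 6.26e-05) in EpiSC against EsrrbHi on the probe used, but its second probe gave −0.56 ± 0.13 (adjusted p = 0.00252), in the opposite direction and under 1.5-fold, so no direction is given for the gene. Mmp11, stromelysin-3, fell in EpiSC against EsrrbHi (−0.59 ± 0.16, adjusted p = 0.0067), a call at the fold threshold that was lost without any one of 7 arrays, for example without EpiSC replicate 1 (−0.51, adjusted p = 0.0246). Mmp17, Mmp1a and Mmp23 were called in no comparison.

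The TIMPs did not move as a group. Timp1, an inhibitor of most secreted MMPs, had 8.65, 8.79 and 8.90 in EsrrbHi, 8.66, 8.56 and 8.59 in EsrrbMed, 7.81, 7.85 and 7.59 in EsrrbNeg and 7.89, 7.45 and 7.70 in EpiSC. Every EsrrbNeg and EpiSC array was below every EsrrbHi and EsrrbMed array. It fell by 1.03 ± 0.12 (adjusted p = 1.45e-05) in EsrrbNeg against EsrrbHi and by 1.08 ± 0.14 (adjusted p = 1.95e-05) in EpiSC against EsrrbHi, and its second probe fell in both (−1.03 ± 0.11, adjusted p = 4.52e-06 and −1.10 ± 0.12, adjusted p = 4.83e-06). Timp2, which also takes part in the activation of Mmp2 by Mmp14, was detected on every EpiSC array (6.37, 5.51 and 5.70), on EsrrbNeg replicates 1 and 3 and on no other array. EpiSC was at least 2.29-fold above EsrrbHi (1.56 ± 0.20, adjusted p = 1.88e-05). The fitted rise over EsrrbNeg, where 1 array was below detection, was 1.15 ± 0.20 (adjusted p = 0.000528). Timp3, the matrix-bound inhibitor, was called in no comparison and was 0.47 ± 0.18 (adjusted p = 0.0358) in EpiSC against EsrrbHi.

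**Figure D5:**
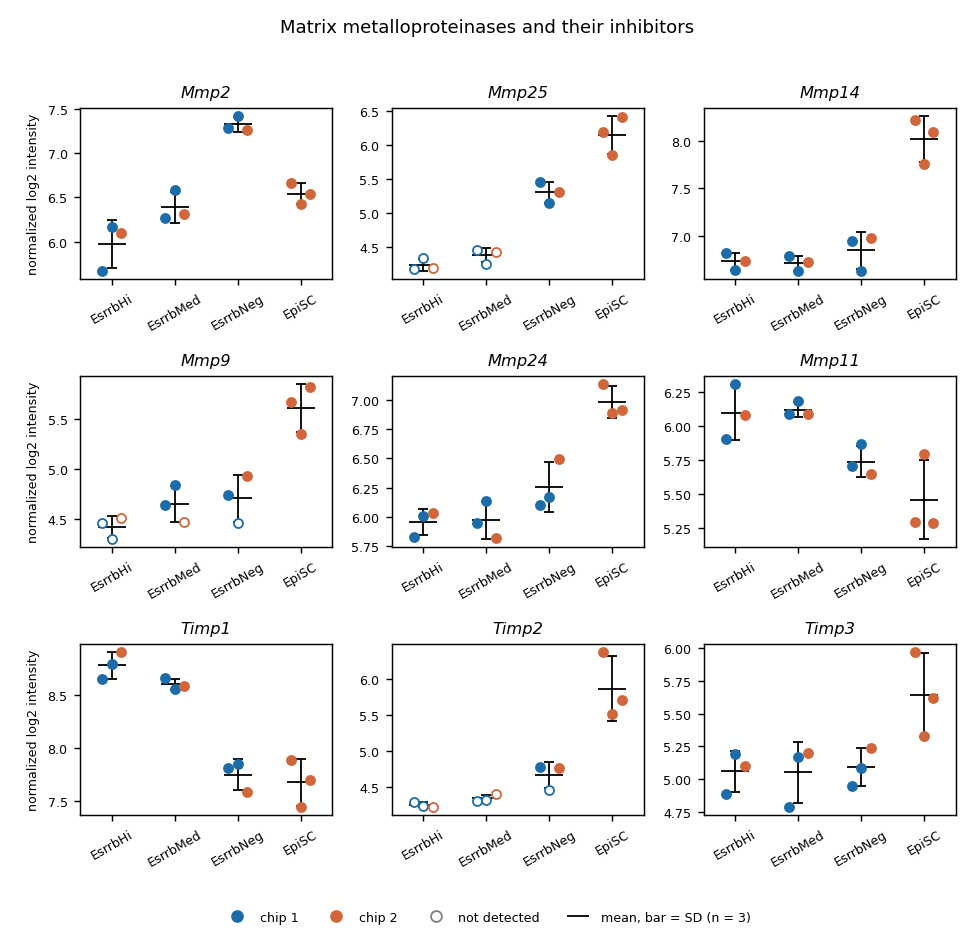
Normalized log2 intensity of 6 MMPs and 3 TIMPs by group, drawn as in the plot of basement membrane genes. Mmp2 peaks in EsrrbNeg, Mmp25, Mmp14, Mmp9 and Timp2 are highest in EpiSC, and Timp1 is lower in EsrrbNeg and EpiSC than in the other fractions.

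Lists of related genes outside the 50 were counted in the same way, against 9.06% of all features in each direction in EsrrbNeg against EsrrbHi and 18.5% higher and 14.9% lower in EpiSC against EsrrbHi. They passed the same detection filter, so a gene kept through EsrrbNeg or EpiSC alone had to be higher there. Of 16 genes of collagen synthesis and crosslinking, 3 rose and 3 fell in both EsrrbNeg and EpiSC against EsrrbHi (18.8% in each direction). Bmp1, the protease that removes the carboxyl propeptide of procollagens, rose there (1.46 ± 0.21, adjusted p = 0.000106) and in EpiSC against EsrrbHi (3.36 ± 0.25, adjusted p = 1.39e-07), while both enhancers of that cleavage fell, Pcolce (−1.25 ± 0.16, adjusted p = 3.51e-05 and −1.33 ± 0.19, adjusted p = 4.3e-05) and Pcolce2 (−1.53 ± 0.12, adjusted p = 5.04e-07 and −2.10 ± 0.14, adjusted p = 6.31e-08). Of 11 basement membrane genes, 1 rose and 1 fell in EsrrbNeg against EsrrbHi (9.09% in each direction, the share of all features), and 3 rose and 2 fell in EpiSC against EsrrbHi (27.3% and 18.2%). In EsrrbNeg the gene that rose was Sdc1, which encodes syndecan-1 and was detected on no EsrrbHi array (at least 1.18-fold, 0.62 ± 0.11, adjusted p = 0.000415), and the one that fell was Hspg2, which encodes perlecan (−0.77 ± 0.14, adjusted p = 0.000626). Perlecan was lower still in EpiSC (−1.81 ± 0.16, adjusted p = 7.48e-07 against EsrrbHi).

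Of 18 matricellular and interstitial matrix genes, 8 rose and 2 fell in EsrrbNeg against EsrrbHi (44.4% and 11.1%), and 10 rose and 2 fell in EpiSC against EsrrbHi (55.6% and 11.1%). Of 32 such genes on the array, 8 to 11 were detected per EsrrbHi array, 14 to 17 per EsrrbNeg array and 16 to 19 per EpiSC array. These rises may therefore be set in part by the detection filter. Lgals3, a galactoside-binding lectin, fell the most (−3.92 ± 0.09, adjusted p = 7.63e-12 and −4.23 ± 0.10, adjusted p = 1.86e-11), and Has2, a hyaluronan synthase, rose (1.44 ± 0.14, adjusted p = 2.48e-06 and 1.80 ± 0.16, adjusted p = 6.63e-07), as did Lgals1, another galectin (1.07 ± 0.20, adjusted p = 0.000689 and 2.31 ± 0.23, adjusted p = 1.95e-06). Of 23 genes of the adhesion complex on the inner side of integrins, 4 rose and 2 fell in EsrrbNeg against EsrrbHi (17.4% and 8.7%) and 6 rose and 3 fell in EpiSC against EsrrbHi (26.1% and 13%). Zyx, a focal adhesion protein, rose (2.20 ± 0.12, adjusted p = 2.57e-08 and 3.04 ± 0.14, adjusted p = 2.85e-09), and Cd9, a tetraspanin that associates with integrins, fell (−1.17 ± 0.09, adjusted p = 5.26e-07 and −1.91 ± 0.11, adjusted p = 1.54e-08). Of 12 other matrix proteases and inhibitors, 1 rose and 2 fell in EsrrbNeg against EsrrbHi (8.33% and 16.7%): Furin, which activates membrane-type MMPs, rose (1.09 ± 0.15, adjusted p = 7.36e-05), and the serine proteases Htra1 (−1.46 ± 0.11, adjusted p = 3.86e-07) and Pcsk6 (−1.02 ± 0.14, adjusted p = 5.32e-05) fell.

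The other 65 genes that match the symbols had no probe that passed. Of these, 49 were detected on no array and 16 on 1 or 2 arrays of some group, among them Lamb1, Itgav, Col3a1 and Itgb8, so most fibrillar and tissue-specific collagens, many integrins and many MMPs could not be compared. Close to the detection threshold, the second probe of Cd44 was kept with a largest detection p of 0.00748 in its best group, and the second probe of Itga5 and the only kept probe of Col6a1, on which the values above rest, with 0.00534, whereas a second probe of Itga9 at 0.0139 and the probes of Itgav at 0.0171 and 0.0192 were not. The missing genes were below detection on these arrays, which does not show that they are not expressed.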

How the data were processed

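RNA (100 ng per sample) of 4 groups was hybridised to 12 arrays. Per the labels and the methods, the authors made bead summaries with beadarray, quantile normalized them, removed batch effects with ComBat and tested with limma. The deposited non-normalized values are linear probe intensities, not background corrected, with a detection p-value for each, and a deposited table of log2 values, normalized by the authors, served as an alternative. Versions and the build of the probe mapping are not given in the sources used here. Probe names came from the platform annotation (32093 probes with 1 gene, 16 with several, 13172 with none), which can be old.

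Here, intensities were background corrected by normexp from the detection p-values, quantile normalized and put on the log2 scale with an offset of 16 (neqc, limma 3.58.1, R 4.3.3), and the kept probe with the highest mean stood for its gene. All 4 groups entered one fit with group and chip, with 7 residual and 6.08 prior degrees of freedom, and p-values were adjusted by Benjamini-Hochberg over 8487 named genes and 2602 unnamed probes. Changes of EpiSC were adjusted for chip through the ESC arrays. The ESC arrays of chip 2 are all replicate 3, so the chip term cannot be told apart from the difference of that replicate. This term enters every change of EpiSC: Itga6 against EsrrbHi was −0.36 without it and −0.69 with it. Over all comparisons, 3 calls were lost and 5 gained without a chip term. The procedure was run on simulated data with changes placed between EsrrbHi and EsrrbNeg. The simulated arrays had no pairing by replicate, and the EpiSC comparisons were not tested in this way. Promoter windows were read from RefSeq (GRCm38.p6), and figures were drawn with matplotlib 3.10.9. Intensities carry no counts, and the number of arrays limits the precision.

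Same-numbered arrays of the ESC fractions deviated together, with correlations of 0.238 to 0.555 over 9 pairs, compared with −0.0493 to 0.227 for other pairs on one chip, so the numbers pair these arrays. For EpiSC with its same-numbered ESC arrays the range was −0.0522 to 0.0579. A replicate block was therefore run as an alternative.

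The genes, the related lists and the markers were chosen with earlier results of these data known. Genes with values in the text were the 6 largest called rises and falls of each comparison, 24 fixed names where kept, and at most 4 genes per related list. The other members named with values, such as Col1a1, Col2a1, Col6a1, Col9a3, Itgb3bp, Mmp9, Mmp11, Mmp14 and Mmp24, were chosen after their values were seen. The alternatives were other background corrections, scalings, detection filters, chip terms, the replicate block, the authors' log2 table, no minimum fold, and leaving out each array.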

Additional observations from a re-analysis of the deposited data

How the results depend on the processing

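The direction of all 91 called changes held in each of the 2204 alternative values computed for them, and 189 values of changes that were not called switched sign without being called. Some alternatives refit the same probe values and could not change a direction, such as no minimum fold, other detection filters and the replicate block on the ESC arrays. Second probes were not among these values, and those of Itgb1 and Mmp24 pointed the other way in EpiSC against EsrrbHi. The number of genes called out of 50 moved more. In EsrrbMed against EsrrbHi it was 3, and 1 with quantiles and no background correction, with median scaling, without the detection filter, on the authors' log2 table or among genes detected on all 12 arrays, and 0 on chip 2 alone. In EsrrbNeg against EsrrbMed it was 14, and 6 without background correction or on the log2 table, 7 with a normexp offset of 50, 8 among genes detected on all 12 arrays and 5 on chip 2 alone. In EsrrbNeg against EsrrbHi it was 15, and 8 without background correction, 9 on the log2 table or among genes detected on all 12 arrays, and 24 with no minimum fold. In EpiSC against EsrrbNeg it was 24, and 8 without background correction, 9 on the log2 table, 14 with an offset of 50, 10 among genes detected on all 12 arrays and 12 on chip 2 alone. In EpiSC against EsrrbHi it was 35, and 21 without background correction, 20 on the log2 table and 19 among genes detected on all 12 arrays, where 30 of the 50 genes could be tested. Leaving out each array gave 1 to 3, 12 to 16, 14 to 19, 22 to 25 and 33 to 36 in the same order. The count of 1 in EsrrbMed against EsrrbHi came without EsrrbHi replicate 1, EsrrbHi replicate 2 or EsrrbMed replicate 2. Calls over all features dropped too. As run here, without background correction and on the log2 table (9990 features) they were 131, 31 and 32 in EsrrbMed against EsrrbHi. They were 1319, 431 and 425 in EsrrbNeg against EsrrbMed and 2010, 745 and 725 in EsrrbNeg against EsrrbHi. For EpiSC they were 2332, 836 and 880 against EsrrbNeg and 3707, 1679 and 1670 against EsrrbHi. Chip 2 alone holds 1 array of each ESC fraction, assumed to vary like EpiSC, and the other causes were not tested.

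With the replicate block on the ESC arrays the counts were 3, 14 and 15, and no call changed. With the replicate block in place of chip, 2 calls were lost, both in EpiSC against EsrrbHi (Itga6 at −0.36, adjusted p = 0.0611, and Col2a1 at 0.57, under 1.5-fold), and 5 were gained, all with EpiSC. The low signal of many probes over background limits all folds of genes near detection.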
